A study of Mus musculus with 6 samples.

Results

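Mesenchymal stem cells and the mural cells of blood vessels are usually recognised by a small panel of surface and cytoskeletal markers. Transcripts of 10 such markers, Pdgfra, Pdgfrb, Thy1, Eng, Cd44, Lepr, Mcam, Cspg4, Acta2 and Nes, were followed here in the apical mesenchyme of mouse first molars. The genes were taken by symbol from a deposited table of 25899 gene symbols, in which all 10 had a row, and all 6 libraries were used. Each was above the filter on low values, a mean of at least 1 read per 1000000 reads (RPM), and so was among the 14444 genes tested.

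The libraries came from lower first molars dissected at postnatal day 7.5 and cut to their apical mesenchyme, on a mixed C57Bl6/129S6/SvEvTac background. The 3 mutant libraries were Gli1-CreER;Bmpr1afl/fl, and the 3 control libraries were Bmpr1afl/fl littermates without the driver. Floxed Bmpr1a alleles, which encode a signalling receptor of the bone morphogenetic protein (BMP) pathway, were therefore shared by all animals. CreER is a recombinase that needs tamoxifen and is made here only where the Gli1 locus is active, so cells outside the Gli1 lineage keep the receptor. The tamoxifen schedule, and whether controls received it, are not given in the sources used here. The animals came from 2 litters, of which the first holds libraries 1 and 2 of each genotype and the second holds library 3 of each. The series addresses how BMP signalling acts on mesenchymal stem cells during tooth development, and the comparison asks whether the markers differed between the genotypes. Whether each library is 1 animal or a pool is not given in the sources used here, so p-values measure only the spread between these samples.

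Some background on the panel follows. Pdgfra and Pdgfrb encode receptor tyrosine kinases for platelet-derived growth factors (PDGFs). The first marks mesenchyme broadly, and the second marks pericytes, the mural cells that wrap capillaries, whose recruitment depends on PDGF made by endothelium. Thy1 (CD90), Eng (CD105) and Cd44 are antigens used to define cultured mesenchymal stromal cells, and Lepr marks perivascular stromal cells of bone marrow. Mcam (CD146) and Cspg4 (NG2) mark mural cells, Acta2 encodes the smooth muscle actin, and Nes encodes the intermediate filament nestin, which is also made by odontoblasts, the dentin-forming cells of the tooth. None of these genes is made by a single cell type. In bulk tissue, fewer cells of a type and less RNA per cell cannot be told apart.

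Reads on genes ran from 15916045 to 20609420 per library, so that 1 read was worth 0.0329 to 0.0419 RPM. The members were counted on 337 to 15539 reads per library, and counting error was small beside the spread between libraries. Values with ± are means and SD over the 3 libraries of a genotype unless another n is named. Controls had 136 ± 14.4 RPM of Bmpr1a, the floxed gene, and mutants had 113 ± 6.51 RPM. Gli1, whose locus carries the driver in mutants, ran from 30.4 to 63.7 RPM in controls and from 19.8 to 28.7 RPM in mutants. The genotypes did not overlap for either gene, as for 2.64% of genes tested. Neither gene passed adjustment by limma with Benjamini-Hochberg (limma, unadjusted p 0.091 for Bmpr1a and 0.046 for Gli1). Markers of other tissues differed widely between libraries of the same genotype. The summed level of 9 enamel epithelium markers, led by Amelx and Ambn, ran from 2317 to 39002 RPM in controls and from 5336 to 49153 RPM in mutants. The 8 dental mesenchyme markers, among them Barx1 and Msx2, were present throughout, at a summed 769 to 1184 RPM. The 6 skeletal muscle markers, among them Acta1 and Mylpf, were at or near 0, at a summed 0.315 to 1.55 RPM.

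The markers spanned a wide range of abundance. Because RPM is not divided by length, levels were compared between genes as RPM per 1000 bases of annotated exon (RPM per kb). The length was the union of all annotated exons, 10024 bases for Pdgfra. Which transcripts were made was not determined, so the order of close values is uncertain. Nes was the most abundant, at 63.5 ± 23.4 RPM per kb (mean ± SD over all 6 libraries). Pdgfra followed at 29.1 ± 4.79, Mcam at 25.9 ± 9.36, Pdgfrb at 24.6 ± 8.75, Cd44 at 21.3 ± 10.7 and Eng at 20.7 ± 3.45 RPM per kb. Lower on the same scale were Acta2 at 15.6 ± 5.02, Thy1 at 7.82 ± 2.90, Cspg4 at 4.10 ± 1.41 and Lepr at 2.68 ± 1.07 RPM per kb. The ranges over libraries overlapped between every gene and the next in this order, so by range only more distant genes were separated. Pdgfra, for example, was never below 24.6 RPM per kb, and Lepr was never above 4.68. Neighbouring genes were not compared within single libraries.

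**Figure D1:**
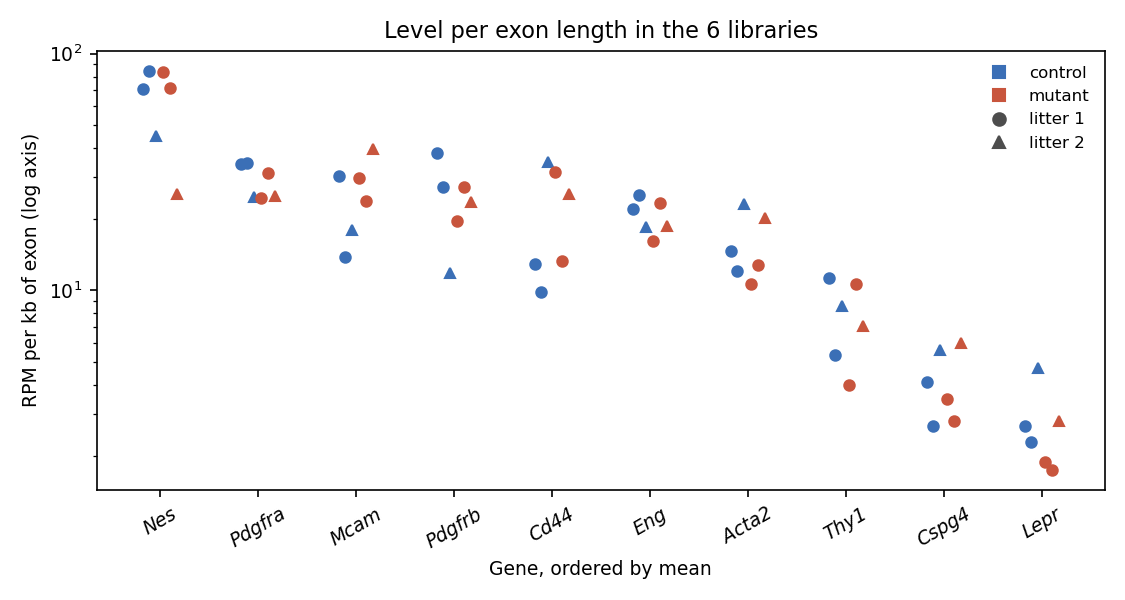
Level of each marker per exon length (vertical axis, RPM per kb, logarithmic) with genes ordered by their mean over 6 libraries (horizontal axis). Each point is 1 library, coloured by genotype and shaped by litter; Nes is at 63.5 and Lepr at 2.68 RPM per kb on average, and neighbouring genes overlap.

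No marker passed the test between genotypes. By limma with Benjamini-Hochberg adjustment, 0 of the 14444 genes were below an adjusted p of 0.05, which is 0% of genes, and 0 of 10 members. Without adjustment 152 genes, 1.05% of those tested, had p under 0.05, and again 0 of 10 members. The 100 lower in mutants were 0.692% of genes tested and the 52 higher were 0.36%. In 382 genes, 2.64%, the genotypes did not overlap, and the members gave 0 of 10. The value was lower in mutants for 7 of 10 members, against 54.4% of all genes tested. Their median log2 change was -0.19, beside -0.01 for all genes. Without mutant 1 that median was 0.03, so its sign rested on a single library. The highest library was at least 2 times the lowest for 8 of 10 members, against 28.2% of all genes. The adjusted p of each of the 10 was 1.00 (limma with Benjamini-Hochberg).

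**Figure D2:**
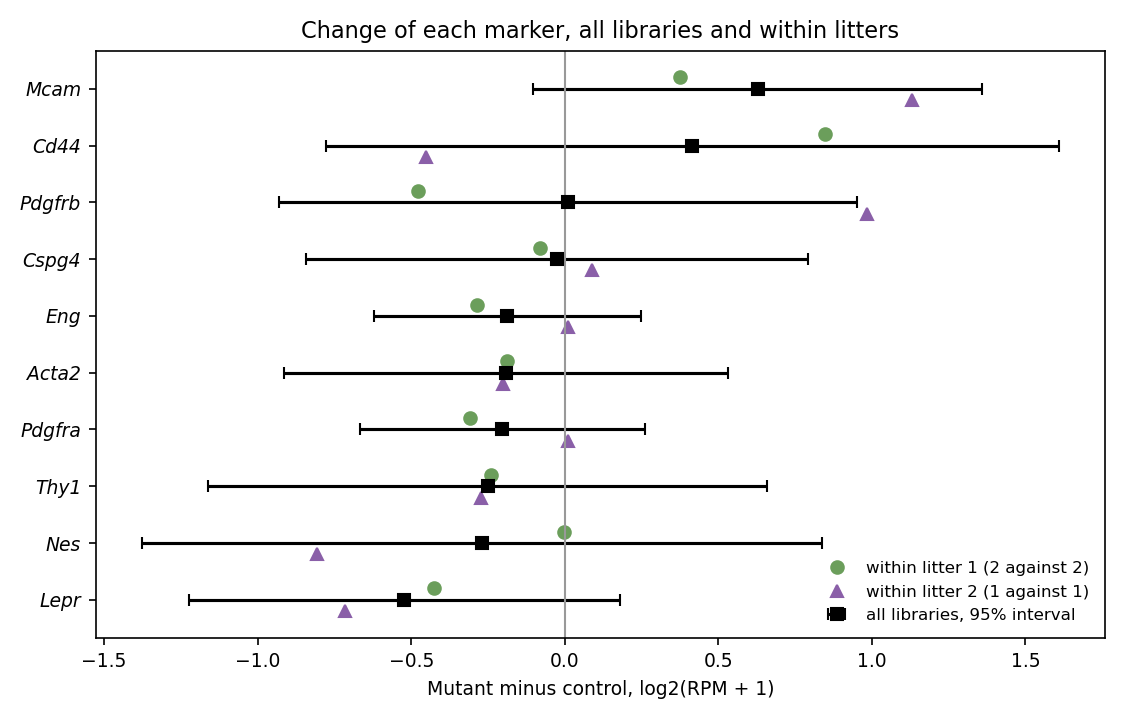
Mutant minus control difference of each marker on the log2(RPM + 1) scale (horizontal axis), with genes on the vertical axis. Squares are the estimates over 6 libraries with their 95% intervals, circles the difference within litter 1 and triangles that within litter 2; every interval includes 0, and the litters lie furthest apart for Pdgfrb and Cd44.

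The PDGF receptors are described first. Pdgfra (chr5:75152292-75198215, GRCm38, plus strand) was the steadiest of the panel. It measured 342, 347 and 249 RPM in controls 1, 2 and 3 and at 247, 313 and 251 RPM in mutants 1, 2 and 3. The groups overlapped, and the highest library was only 1.41 times the lowest. The change was -0.20 on the log2(RPM + 1) scale (SE 0.20, 95% interval -0.67 to 0.26; limma, unadjusted p 0.339). With each library left out in turn it ran from -0.36 (without control 3) to -0.12 (without control 2), and with the enamel markers as a covariate it was -0.06. Decreases beyond 0.629-fold and increases beyond 1.20-fold lay outside this interval.

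Pdgfrb, its close relative (chr18:61045150-61085061, plus strand), varied far more. Controls 1, 2 and 3 held 208, 150 and 65.0 RPM, and mutants 1, 2 and 3 held 108, 149 and 130 RPM. Control 3 was the lowest of the 6 libraries and control 1 the highest, so the controls enclosed all mutants. The overall change was 0.01 (SE 0.40, 95% interval -0.93 to 0.95; limma, unadjusted p 0.981). It was -0.48 within litter 1, where both mutants lay below both controls, and 0.98 within litter 2. The litters lay on opposite sides in this way for 3 of 10 members, Pdgfra, Pdgfrb and Cd44, against 18.2% of all genes. For Pdgfra the litter 2 change was only 0.01. The test of the difference between litters had an unadjusted p under 0.05 for 1 member, Pdgfrb, against 5.06% of all genes (limma). Without control 3 the change was -0.47, without mutant 2 it was -0.10, and without mutant 3 it was -0.00093. It was 0.37 without control 1 and 0.13 without control 2 or without mutant 1. The genes whose profiles were closest to that of Pdgfrb, by the root-mean-square difference of centred log2(RPM + 1) values over 6 libraries, were Tmem90b, Slc8a1 and Pde3a, at 0.0801, 0.0824 and 0.104.

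The summed level of the 12 listed pericyte markers was also lowest in control 3. It was 865, 888 and 310 RPM in controls 1, 2 and 3 and 579, 880 and 528 RPM in mutants 1, 2 and 3. Of the 9 tested, 6 were lowest in control 3, among them Rgs5, a signalling regulator, and Notch3, a receptor of mural cells. Across all genes tested 31% were lowest in that library, and of the 10 members only Pdgfrb was. Acta2, Cd44 and Lepr were highest there. Control 3 stood apart in other markers too. All 6 tested leukocyte genes were lowest there, with a sum of 118 RPM against 269 and 291 RPM in the other controls. All 4 erythroid genes, led by the globin genes Hbb-b1 and Hba-a1, were highest there, with a sum of 1984 RPM against 177 and 210 RPM. Their part in the Pdgfrb value was not tested. Of the listed pericyte genes, 1 of 9 had an unadjusted p under 0.05 and 0 passed adjustment. It was Anpep, which encodes the surface peptidase CD13, with a mean of 22.9 ± 2.16 RPM for controls and 14.6 ± 2.41 RPM for mutants. Its change was -0.62 (SE 0.17; unadjusted p 0.00723 and adjusted p 1.00, limma with Benjamini-Hochberg). Whether the number of pericytes in the dissected piece moved with Pdgfrb was not tested.

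The PDGF ligands were all detected. Pdgfd averaged 89.4 ± 48.7 RPM in controls and 74.3 ± 21.2 RPM in mutants, and Pdgfc at 46.7 ± 25.9 and 28.7 ± 5.48 RPM. Of the 4 ligand genes 3 were lower and 1 higher in mutants, with 0 at an unadjusted p under 0.05 and a median log2 change of -0.12.

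Among the stromal cell antigens, Eng (chr2:32646595-32682669, plus strand), a coreceptor for ligands of the transforming growth factor beta and BMP family, was nearly as steady as Pdgfra. It measured 89.7, 103 and 75.3 RPM in controls 1, 2 and 3 and at 65.4, 94.4 and 75.8 RPM in mutants 1, 2 and 3, with overlap. The change was -0.19 (SE 0.18, 95% interval -0.62 to 0.25; limma, unadjusted p 0.345). It ran from -0.33 without mutant 2 to -0.06 without mutant 1, and was -0.04 with the enamel markers as a covariate. Eng and Pdgfra had the most similar profiles of the 45 pairs of members. The root-mean-square difference of their centred log2(RPM + 1) values over 6 libraries was 0.0891. Endothelial markers, where Eng is also strongly made, summed to 463 to 630 RPM in controls and 405 to 602 RPM in mutants. Cdh5, a junction protein gene, and Cd34 led this list. The endothelial sum was lowest in mutant 1, as Eng and Pdgfra were. So were the sums of the dental mesenchyme markers, the further mesenchymal stem cell markers, the PDGF ligands and the contractile genes, and their part in these values was not tested. The 61 exonic bases that Eng shares with Fpgs on the opposite strand are 1.51% of its exons. Pdgfra shares 456 bases, 4.55% of its exons, with Gm42802 and 166 bases, 1.66%, with Gm42803, also on the opposite strand. It shares 30 bases with Mir7025 on its own strand. Mcam shares 17 bases with Gm10687 on the opposite strand. Whether counting used strand is not given in the sources used here.

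Thy1 (chr9:44043384-44048579, plus strand), a glycolipid-anchored surface protein, varied 2.83-fold without regard to genotype. Controls 1, 2 and 3 were at 33.9, 16.0 and 25.7 RPM, and mutants 1, 2 and 3 at 12.0, 31.7 and 21.1 RPM. Each group held both a high and a low library within litter 1. The change was -0.25 (SE 0.39, 95% interval -1.16 to 0.66; limma, unadjusted p 0.536), and it was 0.10 without mutant 1. The closest profiles to that of Thy1 were those of Rassf2, 2010317E24Rik and Mmp28, at 0.204, 0.205 and 0.216 on the log2 scale. The T cell genes Cd3e, Cd3g and Cd8a, from a cell type in which Thy1 is abundant, were at or near 0 in every library.

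Cd44 (chr2:102811141-102901665, minus strand), the receptor for hyaluronan, had the widest spread of the panel at 3.53-fold. It measured 87.9, 66.9 and 236 RPM in controls 1, 2 and 3 and at 214, 90.3 and 173 RPM in mutants 1, 2 and 3. Control 3, mutant 1 and mutant 3 were high and the other 3 libraries were low, a division that crossed both genotype and litter. The change was 0.42 (SE 0.51, 95% interval -0.78 to 1.61; limma, unadjusted p 0.439), with 0.85 within litter 1 and -0.45 within litter 2. Without control 3 it was 0.95 (limma, unadjusted p 0.0373), but without control 2 it was 0.05 (limma, unadjusted p 0.921) and without mutant 1 it was 0.16 (limma, unadjusted p 0.799). It was 0.24 without control 1 and 0.78 without mutant 2.

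The summed level of the enamel epithelium markers, carried mainly by Amelx and Ambn, was high in the same 3 libraries as Cd44. It was 4928, 2317 and 39002 RPM in controls 1, 2 and 3 and 49153, 5336 and 20450 RPM in mutants 1, 2 and 3. Of the 9 genes, 6 were higher in each of those 3 libraries than in the other 3. Klk4 and Mmp20 were among those that were not, and both were lowest in mutant 3, at 4.02 and 37.0 RPM. With the summed level as a covariate the Cd44 change was -0.10 (limma, unadjusted p 0.481). By the rule on likeness, the genes closest to Cd44 were Ppargc1a, Cdkl2 and C230030N03Rik, at root-mean-square differences of 0.0989, 0.125 and 0.126 on the log2 scale over 6 libraries. How much of the Cd44 signal came from epithelium was not tested. Of the genes for hyaluronan synthases Has3 was the most abundant, at 19.7 to 73.0 RPM, while Has1 and Has2 stayed below the filter.

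Lepr (chr4:101717404-101815352, plus strand), the receptor for leptin, was the least abundant member and the one whose mutants were lower within both litters. In litter 1 the controls were at 18.9 and 16.1 RPM and the mutants at 13.2 and 12.3 RPM. In litter 2 the control was at 33.0 RPM and the mutant at 19.7 RPM. Across litters the groups overlapped, because mutant 3 lay above both litter 1 controls. Mutants were lower in each litter in this way for 5.35% of genes tested, and for 1 of 10 members; they were higher in each litter for 2.92% and for 0 of 10 members. The change was -0.52 (SE 0.30, 95% interval -1.22 to 0.18; limma, unadjusted p 0.123), and it was -0.42 within litter 1 and -0.72 within litter 2. With litter as a block the unadjusted p was 0.00888 and the adjusted p 1.00 (limma with Benjamini-Hochberg), so Lepr did not pass in that fit either. In the block fit 2.02% of genes tested, and 1 of 10 members, had an unadjusted p under 0.05. With the number in the column names as the block these were 3.63% and 2 members, Lepr and Mcam, and with the enamel markers as a covariate 3.7% and 1 member, Lepr. Without control 2 the Lepr change was -0.72 (limma, unadjusted p 0.0493), but without control 3 it was -0.23 (limma, unadjusted p 0.373). Leptin itself (Lep) had 0 reads in every library, which allows up to 0.0987 to 0.126 RPM by counting error alone.

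**Figure D3:**
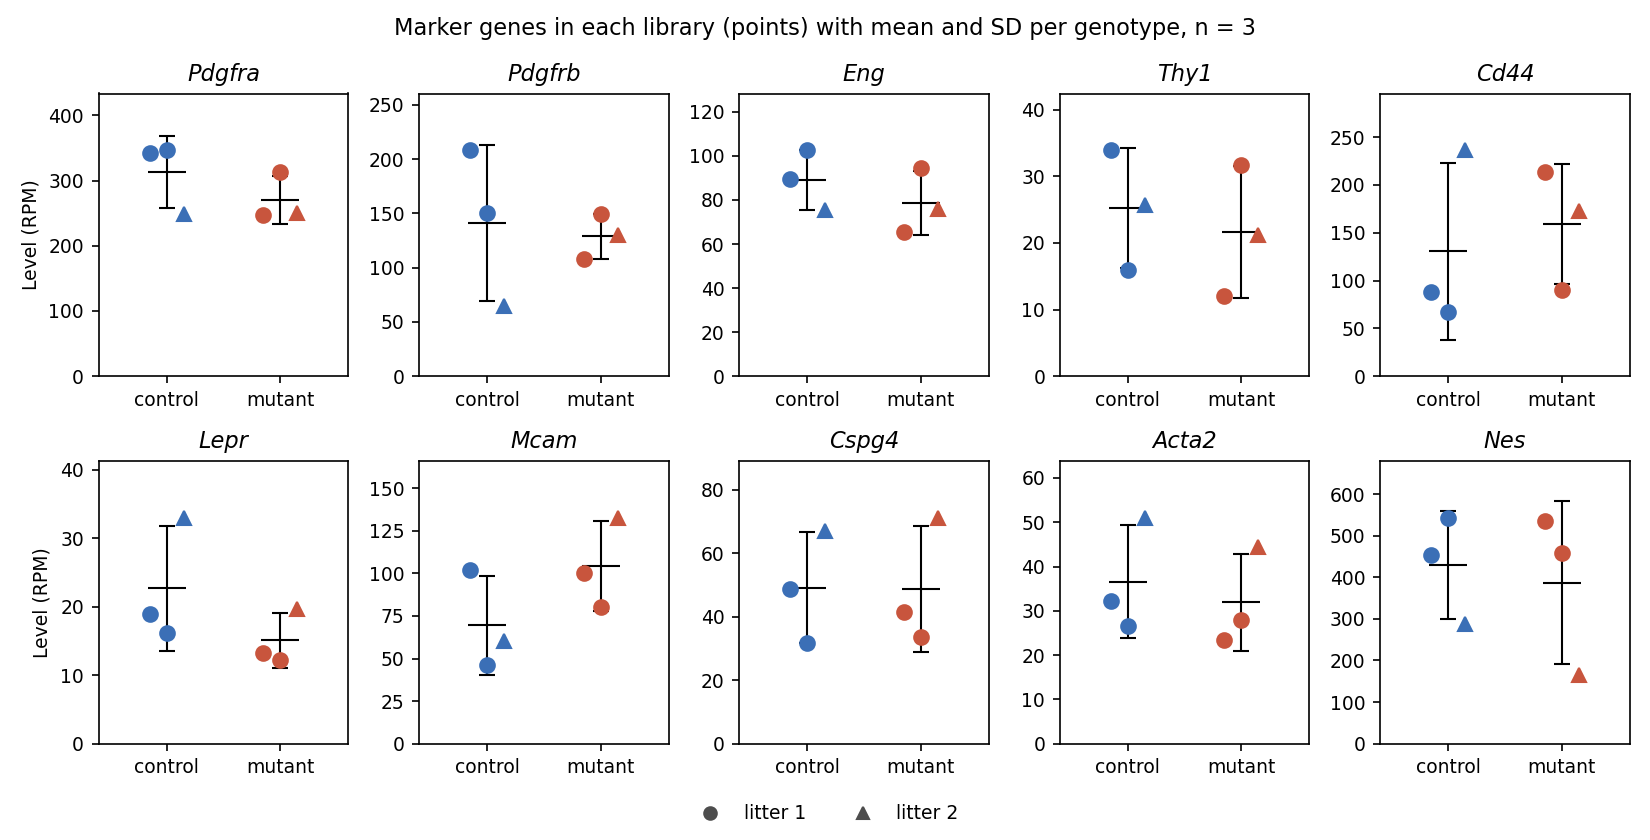
RPM of each marker (vertical axes, linear and starting at 0) in control and mutant libraries (horizontal axes). Points are libraries, circles from litter 1 and triangles from litter 2, and bars give mean ± SD with n = 3; Lepr mutants sit below the controls of their own litter, and the litter 2 triangles are the highest points for Lepr, Cspg4 and Acta2 and the lowest for Nes.

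Mcam (chr9:44134469-44142727, plus strand), a cell adhesion molecule of the immunoglobulin family, had the largest positive difference of the panel. It measured 102, 46.4 and 60.0 RPM in controls 1, 2 and 3 and at 100.2, 80.1 and 133 RPM in mutants 1, 2 and 3. Control 1 was as high as mutant 1, and the groups overlapped. The change was 0.63 (SE 0.31, 95% interval -0.10 to 1.36; limma, unadjusted p 0.0822), with 0.38 within litter 1 and 1.13 within litter 2. Without control 1 it was 0.94 (limma, unadjusted p 0.00939), but without control 2 it was 0.38 (limma, unadjusted p 0.238). The profile of Mcam was closest to those of the transcription factor genes Nfia and Jun and of Tmprss11bnl, at 0.0783, 0.118 and 0.121 on the log2 scale.

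Acta2, Cspg4 and Lepr had similar profiles, high in both libraries of litter 2. Acta2 (chr19:34241090-34255590, minus strand) was at 32.3 and 26.5 RPM in the litter 1 controls and 23.3 and 28.0 RPM in the litter 1 mutants. In litter 2 it was at 51.1 RPM in the control and 44.3 RPM in the mutant. Cspg4 (chr9:56865033-56899870, plus strand), a membrane proteoglycan, measured 48.8, 31.8 and 66.9 RPM in controls 1, 2 and 3 and at 41.3, 33.4 and 71.2 RPM in mutants 1, 2 and 3. For all 3 genes both litter 2 libraries lay above all 4 of litter 1, as they did for 15% of genes tested. The root-mean-square difference of centred log2 values was 0.206 between Acta2 and Lepr, 0.210 between Acta2 and Cspg4 and 0.302 between Cspg4 and Lepr, the closest pairs after Pdgfra and Eng.

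The litter difference of these genes did not pass adjustment. In a fit with genotype and litter together, litter 2 minus litter 1 was 0.78 for Acta2 (SE 0.14; unadjusted p 0.00131 and adjusted p 0.0672, limma with Benjamini-Hochberg). It was 0.84 for Cspg4 (adjusted p 0.105) and 0.74 for Lepr (adjusted p 0.0805; both limma with Benjamini-Hochberg). Over all genes this litter term passed adjustment for 0.872% and had an unadjusted p under 0.05 for 20.9%, and the members gave 0 and 4 of 10. Between genotypes the change was -0.19 for Acta2 (SE 0.31, 95% interval -0.92 to 0.53; limma, unadjusted p 0.551) and -0.02 for Cspg4 (SE 0.35, 95% interval -0.84 to 0.79; limma, unadjusted p 0.945). The Acta2 change was 0.07 without control 3. That of Cspg4 was 0.00097 without control 1, 0.23 without control 3, 0.05 without mutant 1 and 0.20 without mutant 2.

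Acta2 was read beside its contractile partners and its sequence relatives. Tagln, another actin-associated gene of smooth muscle, was at 46.0 RPM in control 3 and 33.1 RPM in mutant 3, above its 19.1 to 22.9 RPM in litter 1. Of the 7 contractile genes tested, Tagln and Tpm2 were higher in both litter 2 libraries than in all of litter 1, and the litters overlapped for the other 5, with Mylk at a litter term of -0.51. Of the listed contractile genes, Cnn1, Lmod1 and Des were below the filter. Myh11 averaged 6.09 RPM and Smtn 32.2 RPM over the 6 libraries. The 10 listed contractile genes, led by Myl9 and Tpm2, summed to 273 to 300 RPM in controls and 206 to 375 RPM in mutants, with 0 of 7 tested at an unadjusted p under 0.05 and a median log2 change of -0.19. By the rule on likeness the genes closest to Acta2 were Arxes1, Arxes2 and Coro1c, at 0.0438, 0.0760 and 0.0813 on the log2 scale. Those closest to Cspg4 were D430041D05Rik, Slc7a1 and Ror2, and those closest to Lepr were Grm4, Ptgfr and B3gnt7.

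The coding start of Acta2 is shown with those of the cardiac and skeletal muscle actins, because reads from so similar a family could be assigned to the wrong member. The first 30 coding bases (GENCODE M21 transcripts, GRCm38) are in lower case, with capitals where the base differs from Acta2.
Acta2: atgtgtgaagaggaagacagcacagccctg
Acta1: atgtgCgaCgaAgaCgaGaCcacCgcTctT
Actc1: atgtgtgaCgaCgaGgaGaCcacCgcTTtg
Over the 1134 coding bases the identity with Acta2 was 85.4% for Acta1 and 82.5% for Actc1, and the longest identical runs were 29 and 23 bases. With reads as assigned, Acta1 was at 0.712 RPM or less and Actc1 had 0 reads in every library. Actg2, with 84.2% identity and a longest run of 29 bases, had 22 to 48 reads per library. Whether reads were assigned to the wrong actin was not tested. The abundant Actg1 and Actb share runs of up to 56 and 47 bases with Acta2, and read length is not given in the sources used here.

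Short upstream sequences are shown next, for the 4 members whose windows held either of a pair of motifs. RefSeq promoter windows of GRCm38.p6 were found for 8 of the 10 genes, in 9 windows, and the 250 bases before each start were searched on both strands. The RefSeq starts differ from the GENCODE ones, and both Acta2 sites and the Mcam site lie inside the GENCODE gene intervals given above. Searched first was the CArG box, the site of serum response factor in smooth muscle genes, with at most 1 base of its core that is not A or T. It was present in Acta2 at 2 positions and in Eng at 1, and in 8.59% of all 32851 promoter windows of that length. With no such mismatch allowed it was in 0 of the 9 windows and in 1.47% of all. Each site is printed in 30 bases, 5′ to 3′ on the strand of the gene, with the motif in capitals.
Acta2, chr19:34255438-34255467, minus strand: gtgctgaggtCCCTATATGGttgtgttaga
Acta2, chr19:34255388-34255417, minus strand: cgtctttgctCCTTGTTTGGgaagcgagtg
Eng, chr2:32646382-32646411, plus strand: agaccttgtcCCCTATAAGGttgccagatg
The other motif was GGCGCC, a sequence that BMP-activated Smad proteins can bind and that reads the same on both strands. It was in the windows of Mcam and Cspg4 and in 9.59% of all windows.
Mcam, chr9:44134588-44134617, plus strand: gcggggccgggcGGCGCCcggggtcccctc
Cspg4, chr9:56864997-56865026, plus strand: aagcgcgggtctGGCGCCtgccccgccccc
A match describes these letters only and is no evidence of binding.

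Nes (chr3:87971078-87980451, plus strand) was the member most reduced in litter 2. It was at 454 and 543 RPM in the litter 1 controls and at 535 and 459 RPM in the litter 1 mutants, which were interleaved. In litter 2 it was at 288 RPM in the control and 164 RPM in the mutant, both below all of litter 1, as was seen for 20.5% of genes tested. The litter term was -1.19 (SE 0.23; unadjusted p 0.00167 and adjusted p 0.0722, limma with Benjamini-Hochberg). With Acta2, Cspg4 and Lepr it made 4 of 10 members whose litters did not overlap, against 35.5% of all genes. Between genotypes the change was -0.27 (SE 0.47, 95% interval -1.38 to 0.84; limma, unadjusted p 0.583). It was -0.0032 within litter 1, -0.81 within litter 2 and 0.26 without mutant 3.

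The summed level of the odontoblast and osteoblast markers was lowest in the same libraries as Nes. It was 4960, 6522 and 2437 RPM in controls 1, 2 and 3 and 8410, 5977 and 629 RPM in mutants 1, 2 and 3. Dspp, the dentin matrix gene of odontoblasts, made up most of this sum in litter 1 and was at 817 RPM in control 3 and 113 RPM in mutant 3. It was the only 1 of the 8 genes with both litter 2 libraries below all of litter 1, and 5 of the 8, among them Ibsp and Spp1, were highest in control 3. Bglap, the osteocalcin gene, was at 86.8 RPM in mutant 3 and at 279 to 831 RPM in the other 5 libraries. For glia, which also make nestin, 7 markers, led by Mbp and Erbb3, summed to 28.8 to 47.1 RPM. By the rule on likeness the genes closest to Nes were 5730508B09Rik, Bicd1 and Phactr3, at 0.0810, 0.101 and 0.123 on the log2 scale. The part of odontoblasts or glia in the Nes values was not tested.

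**Figure D4:**
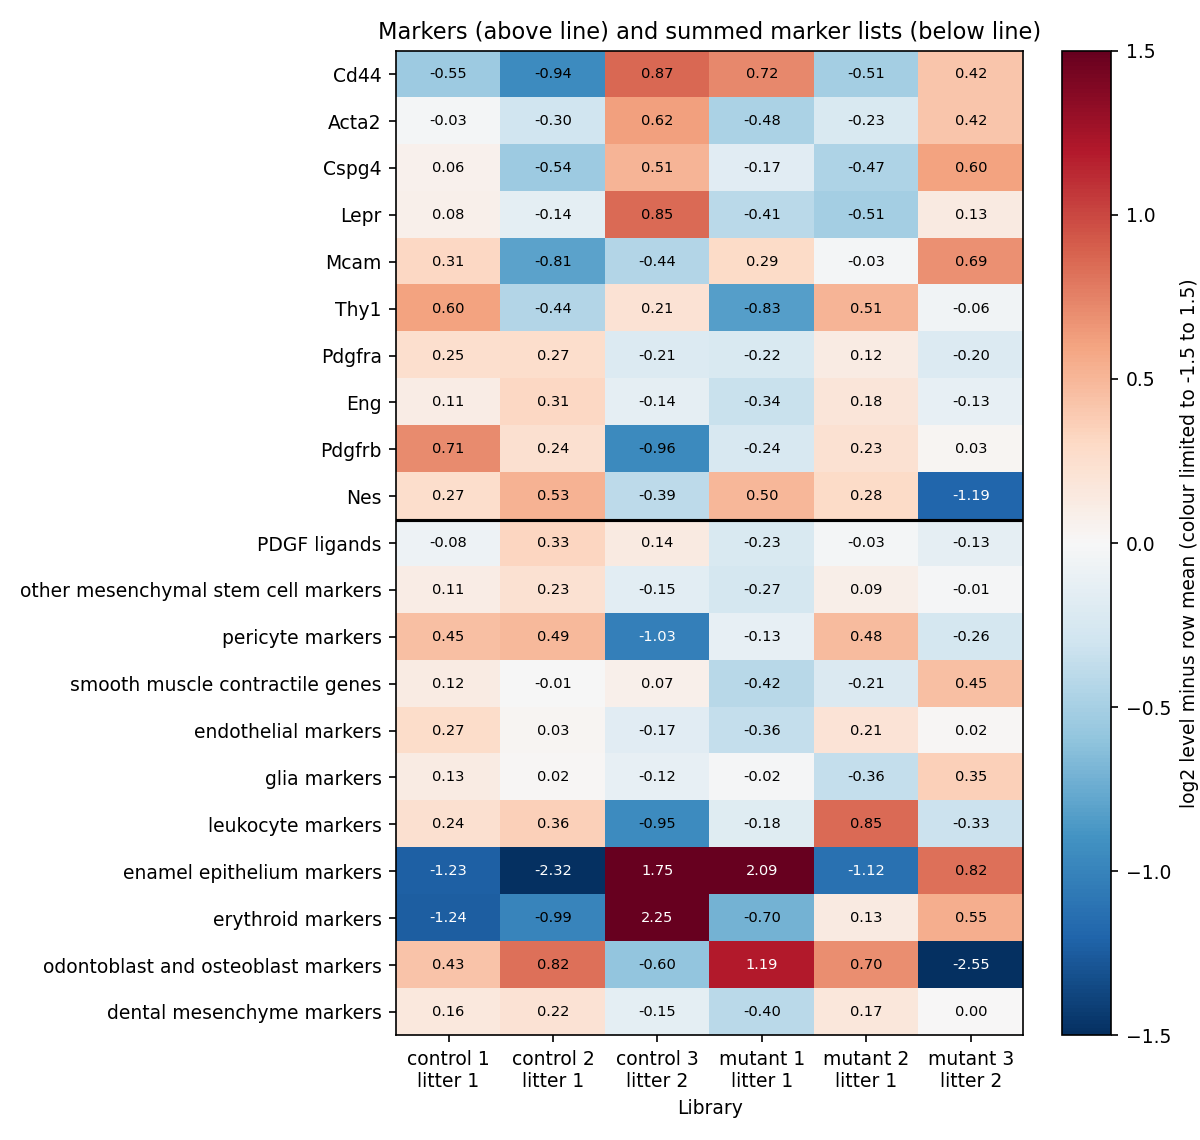
Log2 level of each marker (rows above the line) and of each summed marker list (rows below it) minus the mean of its row, in the 6 libraries (columns); numbers in the cells are these differences. Cd44 and the sum of the enamel markers share their high libraries. Nes and the sum of the odontoblast and osteoblast markers are lowest in mutant 3. Pdgfrb and the sum of the pericyte markers are lowest in control 3.

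Other listed genes were examined as context. Of the 14 further mesenchymal stem cell markers, 8 were lower and 6 higher in mutants, 0 had an unadjusted p under 0.05, and the median log2 change was -0.16. In the fit with a litter block, 1 of the 14 had such a p, the BMP antagonist gene Grem1 (limma, unadjusted p 0.0296). Itgb1, an integrin subunit, averaged 609.9 ± 27.1 RPM in controls and 531 ± 46.7 RPM in mutants, and the chemokine gene Cxcl12 at 346 ± 215 and 314 ± 105 RPM. Among 10 ligands and partners of the members 5 were tested, of which 1 was lower and 4 higher, with 0 at an unadjusted p under 0.05 and a median of 0.18. Of these the receptor gene Tgfbr2 averaged 160 ± 16.2 RPM in controls and 181 ± 12.7 RPM in mutants, and the hyaluronidase gene Hyal2 at 49.4 ± 6.84 and 53.4 ± 7.28 RPM.

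Over the 13 lists outside the panel, 91 genes were tested, of which 7 had an unadjusted p under 0.05 and were lower in mutants, a call made for 0.692% of all genes tested, and 0 passed adjustment by limma with Benjamini-Hochberg. Beside Anpep they included the glial gene S100b (-0.54), the bone matrix genes Ibsp (-1.41) and Spp1 (-3.05), and the dental transcription factor genes Lhx6 (-0.54) and Lhx8 (-0.46), with log2 changes in parentheses. The Spp1 groups overlapped. Control 1 was at 4.54 RPM, controls 2 and 3 at 96.1 and 159 RPM, and mutants at 3.36 to 5.20 RPM. The lists were drawn up with earlier results of these libraries known, so the count of 7 is no independent evidence. Blocking on litter took the count of glial genes from 2 to 1 and that of dental mesenchyme genes from 2 to 3, adding the homeobox gene Dlx2 (limma, unadjusted p 0.04). Median log2 changes were 0.06 for 9 tested pericyte genes, -0.11 for 10 endothelial, -0.28 for 7 glial, 0.22 for 6 leukocyte, 1.17 for 9 enamel, -0.06 for 4 erythroid, -0.61 for 8 odontoblast and osteoblast and -0.27 for 8 dental mesenchyme genes. Leukocyte markers, whose absence is part of the definition of stromal cells, were present at a summed 118 to 291 RPM in controls and 181 to 410 RPM in mutants, led by the macrophage genes Csf1r and Lyz2.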

How the data were processed

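RNA from 6 libraries, 3 per genotype, was poly(A)-selected and sequenced by the authors on an Illumina instrument, per the labels' protocols. TopHat2 and build mm10 are named in the submitters' processing notes; the counting program and annotation are not given in the sources used here. The deposited values are log2 and titled normalized RPKM. Raised as powers of 2, 99.98% of values above each column's minimum were whole multiples (within 0.05) of 1 step per column, so length had not been divided out, and they were read as RPM, an inferred unit; over genes they sum to 66.7 to 68.6% of 1000000. The minimum, 0.9 of a step, was set to 0.

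The test was limma 3.58.1 (R 4.3.3) on log2(RPM + 1) for genes averaging 1 RPM or more (trend, no covariate, two-sided, Benjamini-Hochberg over all 14444 genes). This scale understates the change of low genes. The script was tested on simulated data. Exon lengths and coordinates are from GENCODE M21 (GRCm38), in which the union of exons was used. The members and lists were chosen with earlier results of these data known. Named genes were the members, Bmpr1a, Gli1 and the actins, the 2 most abundant of each list, list genes with an unadjusted p under 0.05 (1 is not reported here), and, for each member ranging at least 2-fold, the 3 genes with the smallest root-mean-square difference in centred values. Tagln, Mylk, Myh11, Smtn, Klk4, Mmp20, Grem1, Dlx2, Has3, Cnn1, Lmod1, Des, Lep and the T cell genes were chosen after values were seen. So were the litter term, the enamel covariate and the motifs. Litter, which the labels give, pairs the samples 2 against 2 and 1 against 1. Intervals for reads cover counting error only.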

Additional observations from a re-analysis of the deposited data

Results flagged for a closer look

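For 3 members the genotypes lay in opposite order in the 2 litters. Every mutant of litter 1 was on one side of its controls and the mutant of litter 2 was on the other. This arrangement was seen for 18.2% of all genes tested. Pdgfrb changed by -0.48 in litter 1 and 0.98 in litter 2, a difference of 1.46 (SE 0.42; interaction term, unadjusted p 0.0127 and adjusted p 0.75, limma with Benjamini-Hochberg). Cd44 changed by 0.85 and -0.45, a difference of -1.30 (SE 0.69; unadjusted p 0.11 and adjusted p 0.91, limma with Benjamini-Hochberg). Pdgfra changed by -0.31 and 0.01, a difference of 0.32 (SE 0.35; unadjusted p 0.395 and adjusted p 0.91, limma with Benjamini-Hochberg). Its litter 2 values were nearly equal, at 249 RPM in the control and 251 RPM in the mutant, so that litter showed no clear direction. Over all genes 5.06% had an unadjusted p under 0.05 for this term and 0 passed adjustment. Litter 2 holds 1 library per genotype, so its spread is borrowed from litter 1, and litter and dissection cannot be told apart.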

How the results depend on the processing

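Of 18 alternative settings, the enamel covariate was chosen after seeing the data. No member passed adjustment under any of the 18. Members lower in mutants numbered 5 to 8. Genes at an adjusted p under 0.05 numbered 0 to 1 with each library left out in turn: 1 without control 1 (Spp1, adjusted p 0.0332 by limma with Benjamini-Hochberg). Genes with p under 0.05 before adjustment, 152 in the report, became 344 when no filter was used, 292 with litter as the replicate block, 524 with the number in the column names as the replicate block, 316 in litter 1 alone, 534 with the enamel covariate, and 68 to 319 with each library left out. Members at that level, reported as 0, were 1 with litter as the block (Lepr), 2 with the column number as the block (Lepr and Mcam), 1 with the enamel covariate (Lepr) and 0 to 1 with each library left out. The causes were not tested. Deviations of same-numbered libraries correlated across genes at -0.03, 0.75 and 0.50 for numbers 1, 2 and 3. Other combinations of a control and a mutant ran from -0.67 to 0.09. Number 1 showed no shared deviation, so the column numbers are not taken as pairs. The blocks changed no other member's call. The members' median change ran from -0.22 to 0.027 with each library left out, and was reversed at 0.027 without mutant 1. Pdgfrb was reversed in litter 1 alone (-0.48) and ran from -0.47 to 0.37 with each library left out. Cd44 was reversed with the enamel covariate (-0.10) and ran from 0.05 to 0.95 with each library left out. In the latter fits Thy1 ran from -0.57 to 0.10, Nes from -0.59 to 0.26, Acta2 from -0.45 to 0.069 and Cspg4 from -0.33 to 0.23. Pdgfra, Eng, Lepr and Mcam kept their direction in all 18 settings, Lepr from -0.73 to -0.23 and Mcam from 0.38 to 0.94. Lepr had an unadjusted p under 0.05 in 4 of 18 and Mcam in 2. The 2 other scalings moved the median of all genes by less than 0.1 on the log2 scale.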
